A study of Mus musculus with 6 samples.

Results

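Chemokines are small secreted proteins that draw cells toward their source, and 7 of them were followed here together with the atypical receptor gene Ackr3: the interferon-inducible Cxcl9, Cxcl10 and Cxcl11, the homeostatic Cxcl12 and Cxcl14, and the membrane-bound Cxcl16 and Cx3cl1. These 8 genes were picked by symbol, and all 8 were among the 24346 gene symbols of the deposited table. RNA-seq was run on total RNA of primary articular chondrocytes, the cells that build joint cartilage, cultured from cartilage of ICR mice (an outbred stock) at postnatal day 4. The 3 control libraries came from cells without semaphorin 4D (Sema4D, a ligand of plexin-B receptors) and the 3 Sema4D libraries from cells stimulated with it. The labels name no genotype, transgene or further agent, and they give neither the dose, the time, the control medium nor the protein's source. Nothing in them says whether replicates were separate cultures or mice, and the p-values below therefore rest on a spread among libraries that may be technical.

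As background, CXCL9, CXCL10 and CXCL11 are induced by interferons and by NF-kappaB, and they share the receptor CXCR3 on activated T and NK cells. CXCL12 is made by mesenchymal cells at rest and signals through CXCR4, while ACKR3 binds CXCL12 and CXCL11 and clears them without classical G protein signalling. CXCL16 and CX3CL1 are made as membrane proteins on a mucin-like stalk, and the proteases ADAM10 and ADAM17 release their soluble forms. CXCL14 is a homeostatic chemokine found mainly in epithelia.

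Cxcl9, Cxcl10 and Cxcl11 lie side by side on the minus strand of chromosome 5 (mm10, whole genes in RefSeq on GRCm38.p6): Cxcl9 at 92321331 to 92328079, Cxcl10 at 92346638 to 92348889 and Cxcl11 at 92359544 to 92363296. Their start sites span the distances of 20.8 kb from Cxcl9 to Cxcl10 and 14.4 kb from Cxcl10 to Cxcl11. RefSeq lists Cxcl11 of the C57BL/6J reference as a transcribed pseudogene and GENCODE M21 lists it as a polymorphic pseudogene; which allele these ICR mice carried was not tested. The others are protein-coding and scattered: Cxcl12 on chromosome 6 (117168535 to 117181368), Cxcl14 on chromosome 13 (56288643 to 56296811), Cxcl16 on chromosome 11 (70454389 to 70459984), Cx3cl1 on chromosome 8 (94772180 to 94782427) and Ackr3 on chromosome 1 (90203980 to 90215724).

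The sequences before the start sites are shown for Cxcl10 and its neighbour Cxcl9, which were high together, and for Cxcl14, which did not pass the test. Each is 250 bases from RefSeq's promoter windows on GRCm38.p6, read 5′ to 3′ on the gene's strand. The windows of Cxcl10 and Cxcl9 end at the gene's outermost start, and that of Cxcl14 ends at an inner transcript start and so lies within the gene's full span. In them capitals mark letters of 3 motifs searched on both strands. These were the core of the interferon-stimulated response element (GAAA and GAAA with 2 bases of any kind between), the STAT-binding GAS core (TTC and GAA with 3 between) and an NF-kappaB site (GGG and TTCC with 3 between).
Cxcl10 (chr5:92348890-92349139, minus strand): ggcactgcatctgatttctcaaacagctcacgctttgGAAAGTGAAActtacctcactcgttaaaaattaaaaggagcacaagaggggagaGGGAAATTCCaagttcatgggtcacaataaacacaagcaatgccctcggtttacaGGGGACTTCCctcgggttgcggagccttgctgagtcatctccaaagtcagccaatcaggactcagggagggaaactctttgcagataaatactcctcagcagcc
Cxcl9 (chr5:92328080-92328329, minus strand): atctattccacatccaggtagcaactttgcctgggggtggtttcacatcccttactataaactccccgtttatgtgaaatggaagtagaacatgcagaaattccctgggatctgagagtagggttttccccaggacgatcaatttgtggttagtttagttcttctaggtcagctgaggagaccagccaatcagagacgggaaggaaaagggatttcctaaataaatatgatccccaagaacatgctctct
Cxcl14 (chr13:56296552-56296801, minus strand): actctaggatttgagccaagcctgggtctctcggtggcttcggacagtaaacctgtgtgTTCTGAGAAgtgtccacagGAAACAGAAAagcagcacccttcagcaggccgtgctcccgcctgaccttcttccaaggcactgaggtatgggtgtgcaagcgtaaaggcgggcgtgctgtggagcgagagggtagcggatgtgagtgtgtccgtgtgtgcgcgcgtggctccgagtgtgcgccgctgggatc

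The Cxcl10 window held 1 interferon element core, GAAAGTGAAA, at 213 to 204 bases before the window's start site, and 2 NF-kappaB matches, GGGAAATTCC at 159 to 150 and GGGGACTTCC at 104 to 95 bases before it. No motif overlapped another in it. The Cxcl14 window held the letters GAAACAGAAA of the interferon element core and TTCTGAGAA of the GAS core, and none of the NF-kappaB letters. The windows of Cxcl9, Cxcl12, Cx3cl1 and Ackr3 held none of the 3, which says only that these letters are not in these 250 bases. Among all 32851 upstream windows of the same length, 2.98% held the interferon element core, 7.02% the GAS core and 4.65% the NF-kappaB letters. A match is a description of the sequence, and binding was not measured.

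Expression was read as FPKM, a fragment number corrected for transcript length and library size, which allows levels to be compared between genes per length. In the control cells Cxcl12 was by far the most abundant of the 8 transcripts, at 84.2 ± 5.82 FPKM (mean ± SD, n = 3 libraries per group throughout). Ackr3 followed at 14.5 ± 1.15, Cx3cl1 at 5.45 ± 0.626, Cxcl14 at 2.48 ± 0.254 and Cxcl16 at 1.09 ± 0.304 FPKM, and neighbours in this order did not overlap. Cxcl10, Cxcl9 and Cxcl11 came last. With Sema4D the order of levels became Cxcl12 (236 ± 7.03 FPKM), Cx3cl1 (45.6 ± 1.79), Ackr3 (28.1 ± 2.3), Cxcl10 (26.3 ± 4.96), Cxcl16 (3.72 ± 0.241), Cxcl14 (2.75 ± 0.131), Cxcl9 (1.73 ± 0.31) and Cxcl11 (0.23 ± 0.0808). Only the neighbours Ackr3 and Cxcl10 overlapped in that order, with libraries at 26 to 30.6 and 20.8 to 30.4 FPKM.

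**Figure D1:**
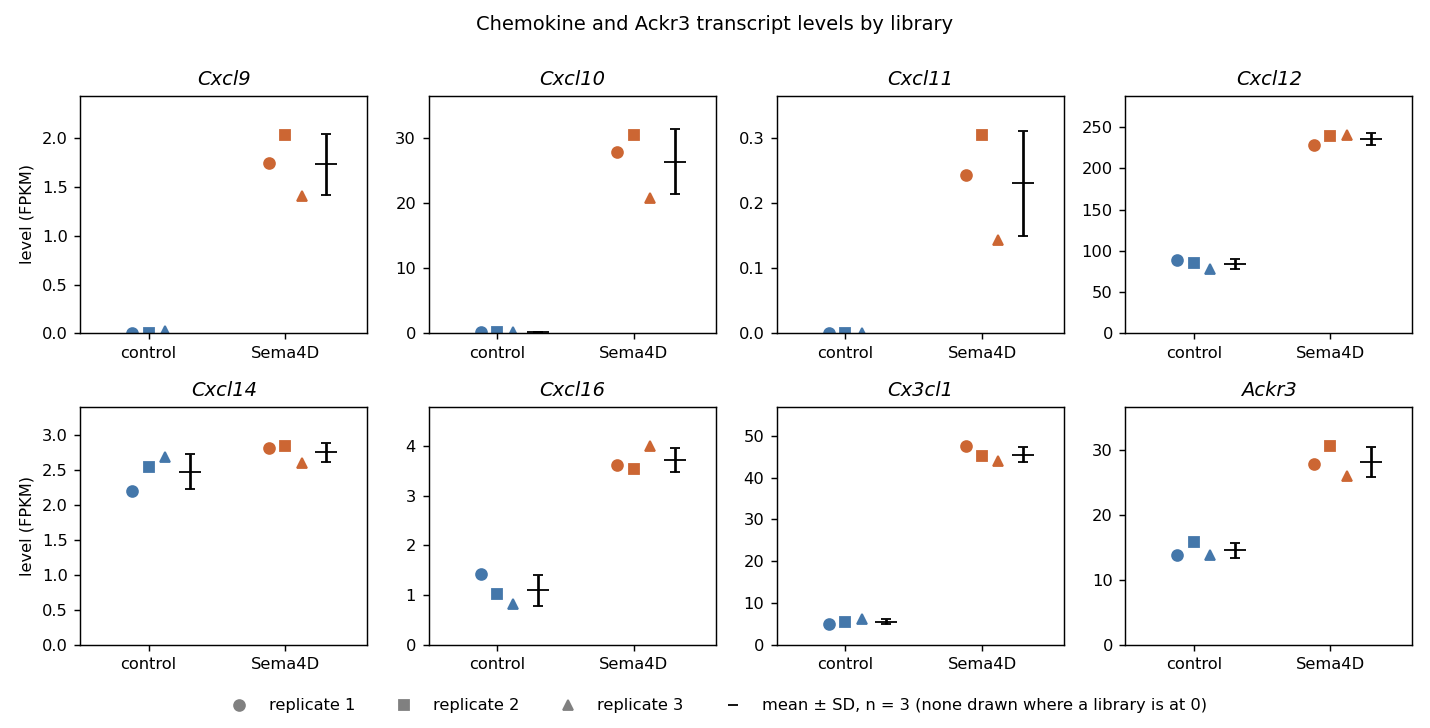
Level of each gene in FPKM (y axis, linear, 1 scale per gene) in the control and Sema4D libraries; symbols are replicates and the bar is the mean ± SD of 3. Sema4D libraries all lie above control libraries for Cxcl12, Cxcl16, Cx3cl1 and Ackr3, beside 29.6% of tested genes (mean of 1 FPKM or more). Cxcl10, which reached that mean through its Sema4D libraries alone, and the untested Cxcl9 and Cxcl11 are also apart. The groups overlap for Cxcl14.

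The comparison asked which of these transcripts differ in chondrocytes given Sema4D. Differences were tested with limma on log2(FPKM + 1) for genes averaging 1 FPKM or more across all 6 libraries, so fold changes on that scale understate those of low genes. Of the 8 genes 6 passed the filter, and Cxcl9 and Cxcl11 did not. Cxcl10 passed through its Sema4D libraries alone, so it had to differ. Cxcl10 is therefore left out of the counts. Of the other 5 tested, 4 rose, none fell and Cxcl14 was not past the threshold of 0.05, beside 46.7% of all 11603 tested genes past it in either direction, 24.5% that rose and 22.2% that fell. The median log2 fold change was 1.18 over those 5 and 0.01 over all tested genes. All tested calls were 52.4% rises, but 38.8% after quantile normalization and 34.5% after scaling to equal library totals (TPM); the 4 genes rose under both. Every Sema4D library was above every control library in the same 4 of those 5 genes, beside 29.6% of all tested genes, and also in Cxcl10 and the untested Cxcl9 and Cxcl11.

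**Figure D2:**
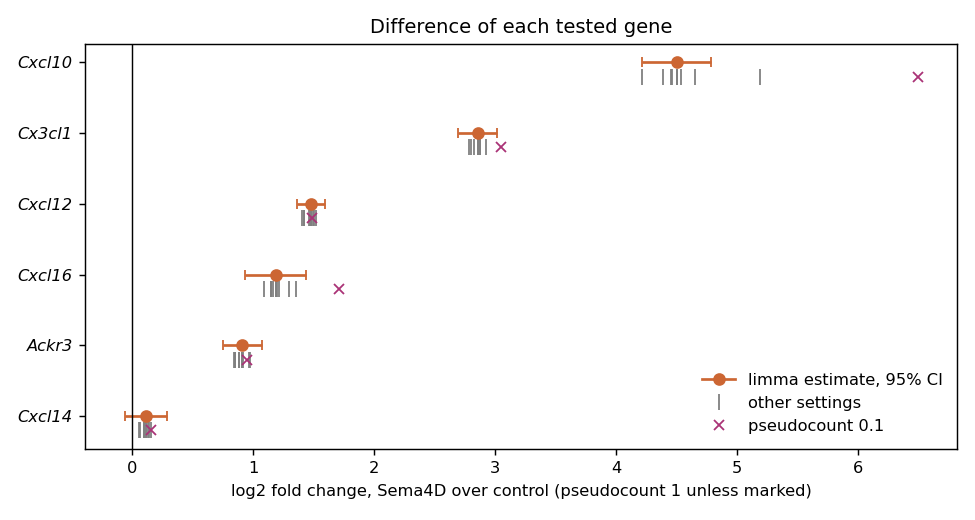
log2 fold change of Sema4D over control for the 6 tested genes with 95% confidence intervals (orange); grey ticks are other settings and crosses a pseudocount of 0.1. Intervals of Ackr3 (0.91), Cxcl16, Cxcl12 and Cx3cl1 (2.85) lie above 0, beside 24.5% of all tested genes that rose. That of Cxcl14 spans 0. Cxcl10 (4.50) passed the filter through its Sema4D libraries alone, so it had to differ.

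Cxcl10 stood at 0.25, 0.129 and 0.201 FPKM in control replicates 1, 2 and 3 and at 27.8, 30.4 and 20.8 FPKM in Sema4D replicates 1, 2 and 3. The groups were far apart, and within the Sema4D group replicate 3 was the lowest. The log2 fold change was 4.50 (SE 0.12, 95% interval 4.21 to 4.79). When genes under the filter were included, so that no level was asked of it, Cxcl10 rose (limma adjusted p = 1.24e-06). By mean FPKM the ratio was 136, and with a pseudocount of 0.1 the log2 fold change was 6.50. Depth estimated from steps in low FPKM values put only 2 to 4 fragments behind each control value, taking the coding transcripts of 1094 and 1353 nucleotides, and 321 to 636 behind each Sema4D value; the size of the ratio rests on those few control fragments.

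The control libraries listed Cxcl9 at 0, 0 and 0.0221 FPKM, and its Sema4D values were 1.75, 2.03 and 1.41 FPKM. The single control value corresponded to about 1 fragment on the transcript of 2889 nucleotides, and the Sema4D values to about 84, 91 and 58. Its mean of 0.87 FPKM over the 6 libraries was under the filter. The fit without the filter took any gene above 0 in some library, so Cxcl9 entered it almost only through its Sema4D libraries. There Cxcl9 was 1.43 higher with Sema4D, a direction all but fixed in advance, and no test of it is given. Of the 17461 genes in that fit 3006 rose, and 33.2% were past the threshold in either direction. Cxcl11 was listed at 0 in every control library and at 0.242, 0.304 and 0.144 FPKM with Sema4D. That is about 3 to 7 fragments per Sema4D library on the transcript of 1581 nucleotides, or 8 to 18 on that of 3794. Cxcl11 entered the fit without a filter through its Sema4D libraries alone. Its direction there (0.30) was thus fixed in advance, and no test of it is given.

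Within the Sema4D libraries the 3 neighbours differed in level. Cxcl10 was 15.9, 15 and 14.7 times the level of Cxcl9 in replicates 1, 2 and 3, and 115, 100.2 and 145 times that of Cxcl11. The genes that flank the cluster moved little beside it. Sdad1 rose from 8.63 ± 0.115 to 11.6 ± 0.441 FPKM (0.39, limma adjusted p = 0.000131) and Nup54, a nuclear pore gene, from 10.5 ± 0.823 to 12.3 ± 0.346 FPKM (0.21, adjusted p = 0.0168), a call lost in 3 of 12 alternatives (adjusted p up to 0.0775; 0.0573 without Sema4D replicate 1). Naaa (0.10, adjusted p = 0.0584) and the lysosomal membrane protein gene Scarb2 (0.05, adjusted p = 0.413, or -0.03 scaled to TPM) did not pass the threshold. Art3, on the opposite strand, spans Cxcl10 and Cxcl11 and shares 133 exonic bases with Cxcl10. The strand setting of the authors' counting was not given in the sources used here, so reads of the pair cannot be told apart there. Art3 was listed at 0.0547, 0 and 0.132 FPKM in control and at 0.0411, 0 and 0 FPKM in Sema4D libraries, far below Cxcl10 with Sema4D. Cxcl11 shares 1582 exonic bases with the pseudogene Gm2673 on the opposite strand in GENCODE M21, so its value is uncertain.

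**Figure D3:**
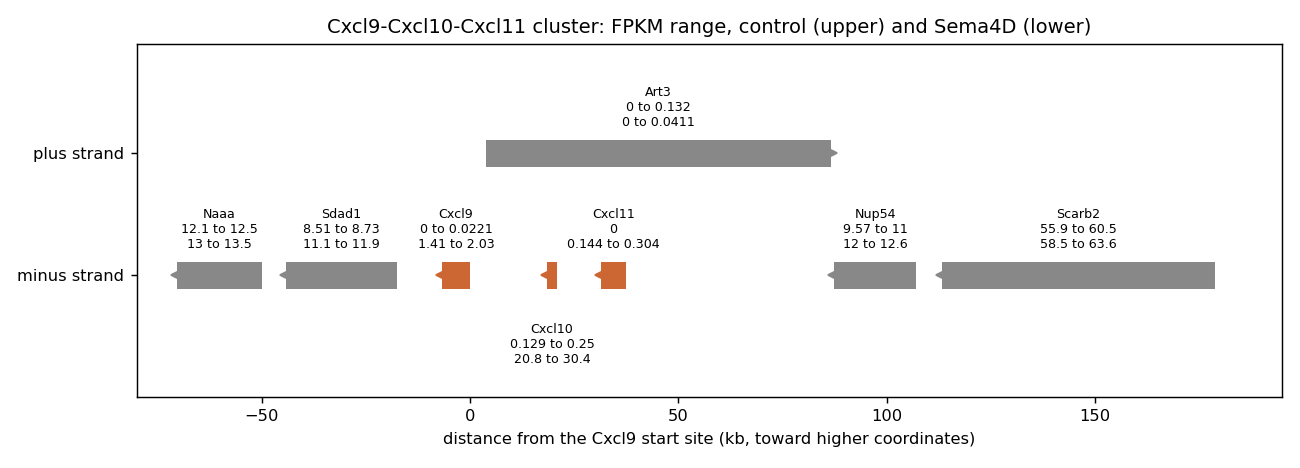
Map of the cluster in kb from the Cxcl9 start, with each gene's strand and the range of its FPKM in control (upper) and Sema4D (lower) libraries. Cxcl9, Cxcl10 and Cxcl11 (orange) go from at most 0.25 FPKM to as much as 30.4, while the flanking genes (grey) differ by at most 0.39 on the log2 scale.

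The 3 neighbours also shared an order among the Sema4D libraries, with replicate 2 highest and replicate 3 lowest in each. For Cxcl11 that order rests on about 6, 7 and 3 fragments in replicates 1, 2 and 3, on the transcript of 1581 nucleotides. The share of all genes with this full order is not given here. Replicate 2 exceeded the mean of the other Sema4D libraries by 1.28 times for Cxcl9, 1.25 times for Cxcl10 and 1.57 times for Cxcl11. It was 1.14 times for Ackr3, 1.05 times for Cxcl14, 1.02 times for Cxcl12, 0.986 times for Cx3cl1 and 0.93 times for Cxcl16. Of the 6 tested genes 3 were highest in replicate 2 (Cxcl10, Cxcl14 and Ackr3), beside 33.2% of all tested genes; with the untested Cxcl9 and Cxcl11 it was 5 of 8. Some interferon signalling genes, Stat2, Irf7 and Irf9, were high in the same library. Stat2 stood at 12.9, 17.1 and 11.7 FPKM in Sema4D replicates 1, 2 and 3, and Irf7 at 7.02, 13.3 and 6.23 FPKM. Irf1 was not, at 39.3, 37.2 and 38 FPKM, and of the 13 tested genes of that list 7 were highest in replicate 2. What these genes have to do with the order of Cxcl9, Cxcl10 and Cxcl11 was not tested. Without that library the log2 fold change of Cxcl10 was 4.39.

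**Figure D4:**
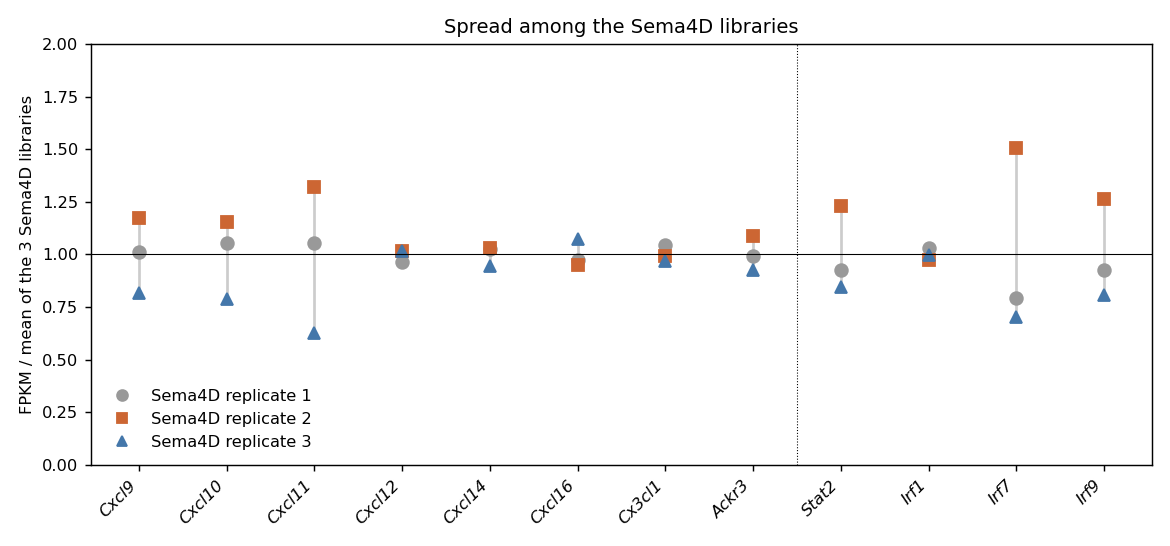
FPKM of each Sema4D library divided by the mean of the 3 (y axis) for the 8 genes and, right of the dotted line, 4 interferon signalling genes. Replicate 2 (orange squares) is on top for Cxcl9, Cxcl10, Cxcl11, Cxcl14 and Ackr3 and for Stat2, Irf7 and Irf9. It is not for Cxcl12, Cxcl16, Cx3cl1 or Irf1.

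Cxcl12 stood at 89.1, 85.8 and 77.8 FPKM in control and at 228, 240 and 240 FPKM with Sema4D. All libraries expressed it strongly, and the lowest Sema4D value was well above the highest control value (2.8 times by means). Cxcl12 rose by 1.48 (SE 0.05, 95% interval 1.36 to 1.59, limma adjusted p = 9.68e-08). The gain of 152 FPKM was larger than the final level of any other of the 8 genes. Its scavenger gene Ackr3 stood at 13.8, 15.8 and 13.9 FPKM in control and 27.9, 30.6 and 26 FPKM in Sema4D libraries, again with no overlap. Ackr3 rose by 0.91 (SE 0.07, 95% interval 0.75 to 1.07, adjusted p = 1.41e-05), a ratio of 1.94 by mean FPKM. The level of Cxcl12 relative to Ackr3 was 6.44, 5.41 and 5.61 in control and 8.18, 7.84 and 9.24 with Sema4D. Those ratios did not overlap. The exact two-sided permutation test gave p = 0.1, the smallest that 3 against 3 libraries can give (adjusted p = 0.1 over 3 ratios compared). That test could therefore not pass 0.05 for any ratio, and the ratios are only described.

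Cxcl14, the other homeostatic chemokine, stood at 2.2, 2.55 and 2.69 FPKM in control and 2.82, 2.84 and 2.6 FPKM in Sema4D libraries. Control replicate 3 was above Sema4D replicate 3, so the groups overlapped. The difference was 0.11 on the log2 scale (SE 0.07, limma adjusted p = 0.256), with a 95% interval of -0.06 to 0.28. That interval includes no change and excludes a rise of the size seen for any of the other 5 tested genes.

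Both membrane-bound chemokine genes rose. Cx3cl1 stood at 4.81, 5.48 and 6.07 FPKM in control and 47.5, 45.1 and 44 FPKM with Sema4D. The groups were well apart and the Sema4D libraries lay close together. Cx3cl1 rose by 2.85 (SE 0.07, 95% interval 2.69 to 3.02, limma adjusted p = 1.42e-08), or 8.36 times by mean FPKM, the 69th highest change of all tested genes. Cxcl16 stood at 1.42, 1.02 and 0.825 FPKM in control and 3.62, 3.54 and 3.99 FPKM with Sema4D, also without overlap. Cxcl16 rose by 1.18 (SE 0.11, 95% interval 0.94 to 1.43, adjusted p = 3.94e-05), or 3.41 times by mean FPKM. It shares 552 exonic bases with Zmynd15 on the opposite strand, which was listed at 0.0459 to 0.114 FPKM in control and 0.228 to 0.514 FPKM in Sema4D libraries. The level of Cx3cl1 relative to Cxcl16 was 3.39, 5.36 and 7.36 in control and 13.1, 12.7 and 11 with Sema4D (exact two-sided permutation p = 0.1, the smallest possible, adjusted p = 0.1).

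**Figure D5:**
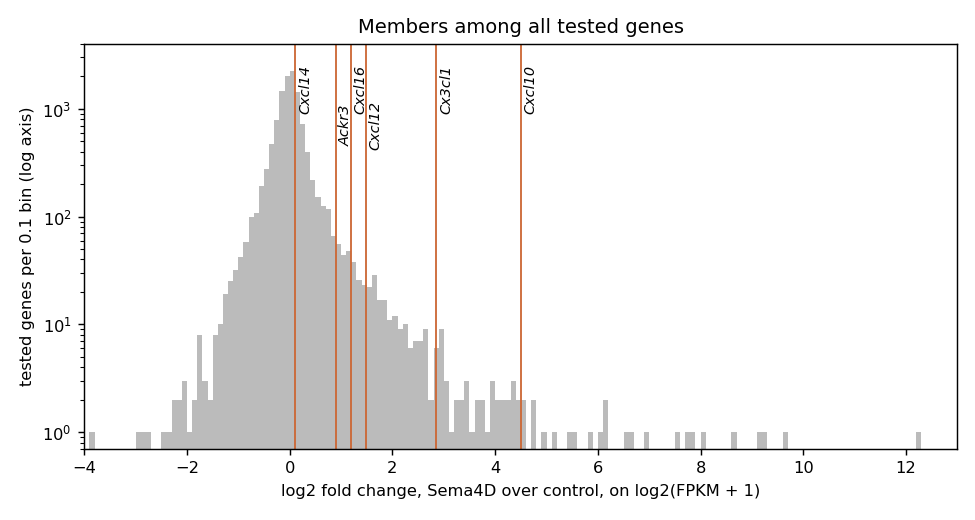
Number of tested genes per 0.1 bin of log2 fold change (y axis, log scale), with the 6 tested genes as orange lines. Cxcl14 lies in the bulk of the distribution near 0, Cx3cl1 and Cxcl10 in its sparse upper tail.

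Cxcl12 held the largest part of the summed level of the 7 ligands in every library. That sum was 97.8, 94.9 and 87.6 FPKM in control and 312, 324 and 313 FPKM with Sema4D, with no overlap. Cxcl12 made up 88.8% to 91.1% of that sum in control and 73.1% to 76.7% with Sema4D. Cx3cl1 took 4.92% to 6.92% in control and 13.9% to 15.3% with Sema4D, and Cxcl10 took 0.136% to 0.256% and 6.64% to 9.38%. The share of Cxcl16 overlapped between the groups, at 0.941% to 1.45% and 1.09% to 1.27%, and that of Cxcl14 was 2.25% to 3.07% and 0.831% to 0.904%. Cxcl12 was 18.5, 15.7 and 12.8 times Cx3cl1 in control and 4.79, 5.31 and 5.46 times with Sema4D (exact two-sided permutation p = 0.1, the smallest possible, adjusted p = 0.1).

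The receptors of these ligands were low or listed at 0. Cxcr3, the receptor of CXCL9, CXCL10 and CXCL11, was listed at 0 in all 6 libraries. Cx3cr1 was listed at 0.292, 0.258 and 0.101 FPKM in control and at 0 in each Sema4D library. Cxcr4 stood at 0.369 to 0.929 FPKM in control and 0.139 to 0.287 FPKM with Sema4D, and Cxcr6 under 0.1 FPKM throughout; none of the 4 passed the filter. Ackr3 was thus the highest of the receptors looked at, by a wide margin in both groups.

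A list of proteases that release or trim these ligands, joined by the iRhom genes Rhbdf1 and Rhbdf2, held 8 genes, of which 7 were tested. Mmp9 passed the filter through its Sema4D libraries alone and Dpp4 through its control libraries alone, so these had to differ. The other 5, Rhbdf1 and Rhbdf2 among them, rose, beside 24.5% of all tested genes. The sheddase gene Adam17 rose from 19.3 ± 0.569 to 46.7 ± 0.844 FPKM (1.23, limma adjusted p = 3.21e-08). Rhbdf2, which encodes the iRhom that carries ADAM17 to the cell surface, rose from 2.96 ± 0.275 to 15 ± 0.448 FPKM (2.01, adjusted p = 4.67e-08), and its relative Rhbdf1 by 0.33. Adam10, the constitutive sheddase, rose by 0.11 (adjusted p = 0.0358), a call lost in 8 of 12 alternatives, among them those without control replicate 2 or 3 or any 1 Sema4D library (adjusted p up to 0.578). The gelatinase gene Mmp2 rose (0.43), and its relative Mmp9 stood at 0.082 ± 0.0329 FPKM in control and 2.39 ± 0.416 FPKM with Sema4D. Dpp4, whose product trims the amino end of CXCL9 to CXCL12, stood at 1.54 ± 0.225 and 0.614 ± 0.0649 FPKM. Ctss was under the filter.

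The interferon ligand transcripts looked at, Ifnb1, Ifng and Ifnl3, were not detected at this depth and were listed at 0 in all 6 libraries. Other interferon ligand genes were not looked at. Of 17 genes of interferon ligands, receptors and signalling, 13 were tested and 11 of them rose (median 0.62), and none fell, beside 24.5% and 22.2% of all tested genes. Irf1, an activator of interferon-responsive promoters, rose from 7.38 ± 0.46 to 38.2 ± 1.08 FPKM (2.23). The receptor genes Ifngr2 (1.37), Ifnar2 (0.92), Ifnar1 (0.67) and Ifngr1 (0.53) rose, as did the kinase genes Jak1 (0.36), Jak2 (0.30) and Tyk2 (0.28). Irf7 (1.48), Stat2 (0.75) and Irf9 (0.62) also rose. Irf3 (-0.00, limma adjusted p = 0.979) and Socs1 (0.36, adjusted p = 0.0683) were not past the threshold, but Socs1 was without control replicate 1 (0.0287) or Sema4D replicate 1 (0.0425). All 5 NF-kappaB subunit genes rose (median 1.56), beside 24.5% of all tested genes: Relb from 6.67 ± 0.323 to 40.5 ± 0.717 FPKM (2.44), Nfkb2 (1.81), Nfkb1 (1.56), Rela (1.11) and Rel (0.29, adjusted p = 0.039). The call of Rel was lost in 9 of 11 alternatives, among them those without control replicate 2 or 3 or any 1 Sema4D library (adjusted p up to 0.12).

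For each tested gene the 3 protein-coding genes with the nearest profile were found, by Euclidean distance between log2(FPKM + 1) values centred over the 6 libraries, among 10549 candidates. Nearest to Cxcl10 were the interferon-inducible guanylate-binding protein genes Gbp2 (distance 0.32) and Gbp5 (0.35) and the calcium pump gene Atp2b4 (0.35). Nearest to Cx3cl1 were Tnfaip3, an inhibitor of NF-kappaB signalling (0.09), the chemokine gene Ccl3 (0.20) and the death receptor gene Fas (0.23). The 1 added before the log shrinks the changes of low genes, so a near profile need not mean a like ratio. By mean FPKM Cx3cl1 went from 5.45 to 45.6, but Tnfaip3 from 0.627 to 11.1 and Ccl3 from 0.135 to 7.33. Gbp5, near Cxcl10, went from 0.0136 to 20.2, and Kank4, near Cxcl12, from 0.238 to 2.36 FPKM. Cxcl12 was nearest to Kank4 (0.11), the peptide-trimming aminopeptidase gene Erap1 (0.13) and Arrdc3 (0.14). Ackr3 was nearest to the phosphatase gene Ptpn2 (0.05), Daam1 and Gpr35 (both 0.12), and Cxcl16 to Abcb1b (0.21), the CSF1 receptor ligand gene Il34 and the carbonic anhydrase gene Car12 (both 0.23). Cxcl14 was nearest to Usp42 (0.05), Agrn and Nradd (both 0.06), none of them past the threshold.

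The cell labels held up against chondrocyte markers, with all 8 present, a summed level of 13296 to 14383 FPKM in control and 10675 to 11559 FPKM with Sema4D, and all 8 lower with Sema4D, beside 22.2% of all tested genes. Fibroblast markers were also present, at 5210 to 5568 and 5338 to 5564 FPKM summed over 6 genes. The 9 macrophage markers summed to 25.5 to 32.6 and 24.1 to 27.8 FPKM, mostly Lyz2, and none was at 0 throughout; of 4 tested, Cd14 rose, beside 24.5% of all tested genes, and Lyz2 fell, beside 22.2%. Tyrobp passed the filter through its control libraries alone. Among the untested markers, Adgre1 stood at 0.268, 0.264 and 0.0784 FPKM in control and 0.75, 0.706 and 0.563 FPKM with Sema4D. Fcer1g stood at 0.166, 0 and 0.536 FPKM and at 0.875, 0.938 and 1.63 FPKM, while Ptprc, Csf1r and Itgam overlapped between the groups. The 6 endothelial markers summed to 0.0652 to 0.242 and 0.131 to 0.307 FPKM. The 8 T and NK cell markers summed to at most 0.0584 FPKM, with Cd3e, Cd3d, Cd3g, Cd8a and Nkg7 at 0 in all 6 libraries. The part of fibroblasts or macrophages in the chemokine differences was not tested, and in bulk RNA fewer cells of a type and less RNA per cell cannot be told apart. An exact 0 in such a table can be a failed estimate, so genes with a 0 are given per library.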

How the data were processed

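The authors deposited FPKM for 24346 gene symbols, 1 column per library, on the build mm10. Per the submitters' processing notes the tools were Cufflinks 2.2.1, TopHat2 2.0.13, SAMtools 0.1.19 and Bowtie2 2.2.3, without their roles. Not given in the sources used here: annotation, strand setting, filters and any scaling between libraries. Count tests do not suit FPKM and were left out. Depth was estimated by fitting low FPKM values of 1681 genes with 1 transcript over 2000 nucleotides to whole fragments: 1.25e+07 to 1.66e+07 per library, with 77.4% to 83.3% of values within 0.15 of a whole number, too few to recover counts.

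Tests used limma 3.58.1 in R 4.3.3 (lmFit, eBayes with trend, two-sided) on log2(FPKM + 1) for the 11603 genes averaging 1 FPKM or more, all 6 libraries, no replicate block, Benjamini-Hochberg adjustment over all tested genes and a threshold of 0.05. Checked on simulated data for this comparison with 11603 genes, the fit recovered 60% of changes of 1.25-fold and 94% of 1.5-fold. Those changes were added on the log2(FPKM + 1) scale to a small part of the genes, with independent noise. In the data 46.7% of genes passed, so recovery there can differ. The alternatives were a pseudocount of 0.1, no filter, a mean of at least 5 FPKM, quantile normalization, scaling to TPM, a replicate block and leaving out each library. Other steps used Python 3.11.15, scipy 1.17.1 and matplotlib 3.10.9. Promoter windows and positions came from RefSeq (GRCm38.p6), which held windows for 6 of the 8 genes, and overlaps and transcript lengths from GENCODE M21. Named genes were the 8 genes, members past the threshold or at 0 in a whole group from 4 related lists, the 3 nearest profiles and the cluster's flanking genes; the genes and lists were chosen with earlier results of these data known, and other list members are named where a count was small. From 1 of those lists 1 gene is not reported here.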

Additional observations from a re-analysis of the deposited data

How the results depend on the processing

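None of the 6 genes tested in the main analysis changed its direction or its side of the threshold under the alternatives in which it could be tested. The same alternatives were run on 47 other list and flanking genes, a choice made after seeing the data, and 10 changed a call or direction in at least 1. Calls of Adam10, Rel and Nup54 were lost as given above, that of Col2a1 after quantile normalization (adjusted p = 0.459). Uncalled genes that passed in some were Col1a1, Col3a1, Naaa and Socs1. Uncalled differences that changed sign were those of Irf3 (-0.080 to 0.042 on leaving out 1 library, above 0 without control replicate 2, control replicate 3 or Sema4D replicate 2) and Scarb2 (-0.013 after quantile normalization, -0.035 scaled to TPM). Cxcl12, Cx3cl1, Ackr3 and Cxcl16 rose in every alternative that tested them; with a mean of at least 5 FPKM Cxcl16 was not tested. Of all tested genes 24.5% rose in the main analysis, 2005 of 11603 scaled to TPM and 3006 of 17461 without the filter. Cxcl10 is again left out. So are Cxcl9 and Cxcl11, which entered the fit without the filter through their Sema4D values. Cxcl9 also entered where a missing control library lifted its mean over the filter. The log2 fold change of Cxcl10 ranged from 4.21 after quantile normalization to 6.50 with a pseudocount of 0.1, that of Cxcl16 from 1.09 to 1.71, Cx3cl1 from 2.78 to 3.05, Cxcl12 from 1.40 to 1.52 and Ackr3 from 0.84 to 0.97. For Cxcl14 it was 0.05 to 0.16, with adjusted p from 0.174 to 0.595. Across all genes 5422 passed the threshold, and 4699 to 5807 over the alternatives, except 4268 with a mean of at least 5 FPKM. With a replicate block 4994 genes passed, 2638 of them as rises, and Cxcl12, Cx3cl1, Ackr3 and Cxcl16 rose. That block ended the calls of Adam10 (adjusted p = 0.0835) and Rel (0.0547) and no other of these. The labels tie same-numbered libraries of the groups by a number alone. Correlations of their deviations from the group means were 0.14, -0.08 and -0.05, and replicate 1 alone correlated best with its own number. Whether the libraries were paired cannot be told from these values. Depth limits Cxcl11 and the control levels of Cxcl9 and Cxcl10, each resting on a few fragments.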

Other observations

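Of 6 fibroblast marker genes, 3 rose and 1 fell with Sema4D, beside 24.5% and 22.2% of all tested genes. Pdpn, which encodes the surface glycoprotein podoplanin, rose from 16.4 ± 0.903 to 40.3 ± 1.39 FPKM (mean ± SD, n = 3; log2 fold change 1.25, limma adjusted p = 1.77e-07). Pdgfra, a PDGF receptor gene, rose from 22.8 ± 0.678 to 42.3 ± 0.661 FPKM (0.86), and the small proteoglycan gene Dcn from 249 ± 8.74 to 357 ± 5.98 FPKM (0.52). Thy1 fell from 17.5 ± 0.573 to 15.7 ± 0.386 FPKM (-0.15), while Col1a1 (-0.07, adjusted p = 0.138) and Col3a1 (0.09, adjusted p = 0.0517) were not past the threshold. Col1a1 passed without control replicate 1 (adjusted p = 0.0261) or scaled to TPM (0.00578), and Col3a1 without control replicate 2 (0.0234).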
